A study of Mus musculus with 18 samples.

Results

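The genes described here encode the proteins stored in eosinophil granules, together with Cd34, which encodes a surface sialomucin best known as a marker of blood progenitors. They were the genes of the deposited table named Prg2, Prg3, Epx, Ear1, Ear2, Ear6 and Cd34, which were 7 of 22708 genes. Small-intestinal eosinophils of mice labelled as lacking the aryl hydrocarbon receptor (AHR), of mice labelled as lacking the AHR repressor (AHRR) and of wildtype (WT) mice were sorted and profiled by RNA sequencing to ask what the receptor does in these cells. There were 18 samples, 6 for each genotype, and each 6 comprised 3 females (F1 to F3) and 3 males (M1 to M3). Cells were sorted as CD11b+MHC-II-SiglecF+SSChi, a gate that holds granular cells with the eosinophil lectin Siglec-F. The total recovered count per sample was 3842977 to 8149200 in WT, 6581818 to 10284124 in Ahr-KO and 8788867 to 12046933 in Ahrr-KO, with medians of 6022409.5, 9647589.5 and 10371556, so the median was lowest in WT and the WT and Ahr-KO ranges overlapped. WT F3 and Ahr-KO F3 stood apart in the number of genes with a count, 20244 and 19694, against 15146 to 16526 in the other WT and 15479 to 16704 in the other Ahr-KO libraries. It was 15598 to 17236 in Ahrr-KO. WT F3 was also the library with the lowest total count.

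All 3 genotypes were labelled as strain C57/BL6. The labels named the other genotypes as Ahr-KO and Ahrr-KO with no allele, and gave no treatment and no age for any animal. According to the study's methods, the Ahr-KO and WT mice were neither littermates nor housed together, so genotype, litter and cage cannot be told apart in these data.

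Eosinophils are made in the bone marrow, where immature cells fill specific granules with major basic protein (Prg2), its homolog (Prg3), eosinophil peroxidase (Epx) and ribonucleases of the Ear family. The transcripts of these proteins are abundant in marrow precursors and scarce in mature tissue eosinophils, which keep the protein in the granule. AHR is a transcription factor activated by dietary, microbial and environmental ligands and is prominent at barrier surfaces such as the gut, and AHRR is a target gene of AHR that restrains it.

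Values are on the variance-stabilized scale of the deposited table, which follows log2 of the normalized count at high counts and is compressed at low counts, and on which 0 counts gave 5.02. Whole counts were recovered from these values. Fewer cells of a type and less RNA per cell cannot be told apart in such bulk samples. The sorted cells carried high levels of eosinophil receptor genes. Ranked by CPM (counts per 1000000 counts of the library) per kilobase of transcript in WT among 20294 genes with a count, the chemokine receptor gene Ccr3 was number 71, Siglecf number 507 and Il5ra number 685.

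The targeted genes themselves were examined in the same libraries. Ahr had values of 13.4 to 14.4 in WT, 14.15 to 14.67 in Ahr-KO and 13.03 to 14.42 in Ahrr-KO. Ahrr had values of 9.79 to 10.39 in WT, 5.02 to 5.79 in Ahr-KO and 9.95 to 10.93 in Ahrr-KO. Neither targeted transcript was lower in its own knockout than in WT at the level of the whole gene, so these totals do not check the genotype labels. Cyp1b1, an AHR target gene, had a median of 9.6 in WT, 5.39 in Ahr-KO and 9.81 in Ahrr-KO, so the libraries labelled Ahr-KO were set apart by low levels of AHR target genes and those labelled Ahrr-KO were not set apart by either measure.

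Only Prg2 and Cd34 passed the filter on low values, a mean at least 1 above the lowest value of the table, and their WT means alone were past it. Prg3, Epx, Ear1, Ear2 and Ear6 lay below it in each genotype comparison and were tested only in a fit with no minimum. Transcript abundance in WT was compared between the genes as CPM per kilobase. It was 11.5 ± 4.06 (SD, n = 6) for Prg2 and 6.22 ± 2.38 for Cd34. The next were Ear1 at 1.06 ± 1.5, Ear2 at 0.776 ± 0.634 and Epx at 0.515 ± 0.219, followed by Prg3 at 0.177 ± 0.148 and Ear6 at 0.0486 ± 0.119. Prg2 stood above the other granule genes by more than their spread, whereas Ear1, Ear2 and Epx did not differ beyond theirs. Among the 20294 genes, Prg2 was number 4487, Cd34 number 6344 and Epx number 11984 by this measure in WT. In Ahr-KO the abundance was 88.8 ± 31.8 for Prg2 and 42.5 ± 5.2 for Cd34, and in Ahrr-KO it was 14.6 ± 5.74 and 6.38 ± 1.68, so the same pair led in each genotype.

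Prg2 (Entrez 19074, chr2:84980461-84983632) encodes major basic protein, the cationic protein that forms the crystalline core of the eosinophil granule. Its values in WT ran from 6.69 in F1 through a median of 6.93 to 7.61 in F2. In Ahr-KO they ran from 8.6 in M1 through 9.41 to 9.95 in F3, and in Ahrr-KO from 6.48 in M3 through 7.21 to 7.96 in F2. Every Ahr-KO sample lay above every WT and every Ahrr-KO sample, and the WT and Ahrr-KO samples overlapped. Such a full separation upward was shared by 2.62% of 11346 genes tested for Ahr-KO over WT and by 3.01% of 11474 for Ahr-KO over Ahrr-KO. The counts behind these values were 41 to 85 in WT, 285 to 983 in Ahr-KO and 57 to 176 in Ahrr-KO. The mean normalized count was 76.9 ± 32.7 (SD, n = 6) in WT, 625 ± 268 in Ahr-KO and 102 ± 50.7 in Ahrr-KO. The mean of Ahr-KO was thus 8.13 times that of WT.

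Cd34 (Entrez 12490, chr1:194938821-194961292) encodes a heavily glycosylated membrane protein found on blood stem and progenitor cells, on the endothelium of small vessels, on some fibroblasts and on mouse mast cells and eosinophils. Its values in WT ran from 6.99 in M1 through a median of 7.46 to 8.0 in M2. In Ahr-KO they ran from 9.59 in M2 through 9.96 to 10.08 in F1, and in Ahrr-KO from 6.91 in M3 through 7.6 to 8.05 in M1. The 6 Ahr-KO samples again stood above the other 12 with no overlap, and they were closer to each other (SD 0.21) than the Ahr-KO samples were for Prg2 (SD 0.6). The mean normalized count was 126 ± 51.3 (SD, n = 6) in WT, 889 ± 133 in Ahr-KO and 134 ± 46.1 in Ahrr-KO. The mean of Ahr-KO was 7.05 times that of WT.

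**Figure D1:**
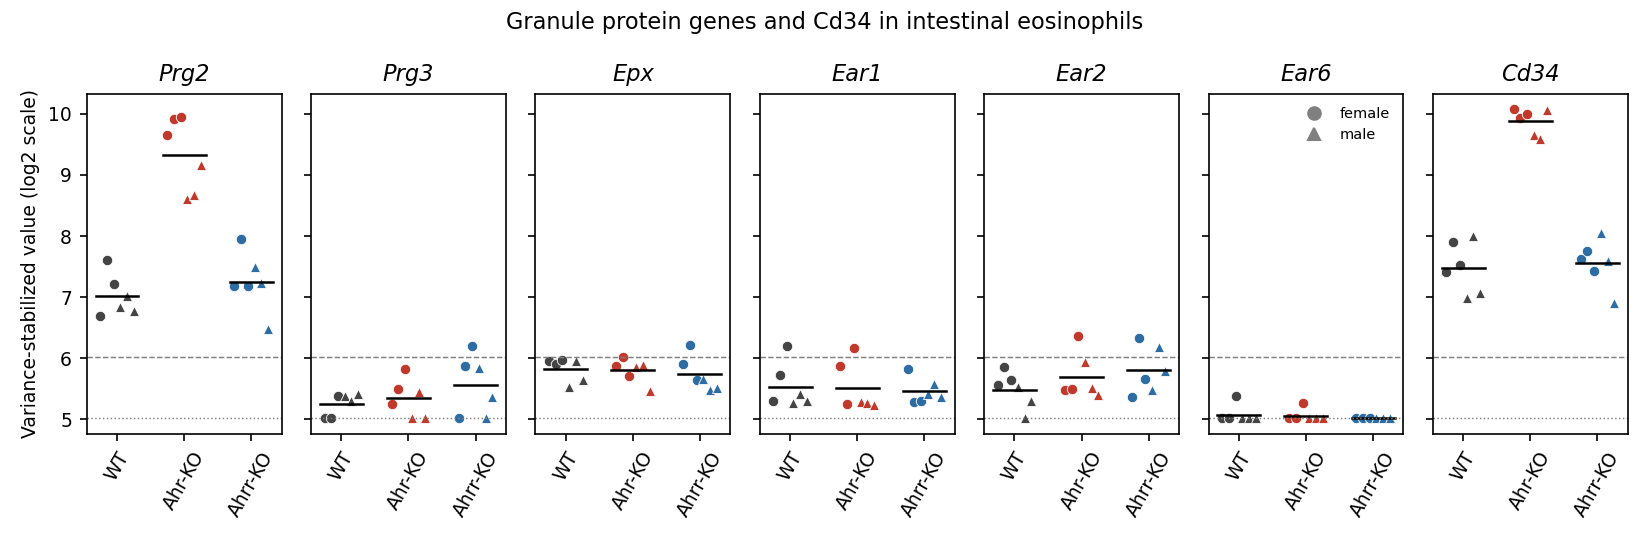
Deposited variance-stabilized values of the 7 genes in each sample, with 1 panel per gene, circles for females and triangles for males, a bar at each genotype mean, a dashed line at the limit of the filter and a dotted line at 0 counts. Prg2 and Cd34 are raised in all 6 Ahr-KO samples, and the other 5 genes lie close to the lowest value of the table.

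The comparison of Ahr-KO with WT asks what loss of the receptor does to eosinophil transcripts. Of 11346 genes tested with limma, adjusting for sex, 8.84% had an adjusted p under 0.05, and both members that were tested were among them. On the variance-stabilized scale Prg2 was higher in Ahr-KO by 2.30 (SE 0.17, 95% interval 1.93 to 2.67, adjusted p 3.47e-07), in 6 of 6 samples. Cd34 was higher by 2.40 (SE 0.16, 95% interval 2.06 to 2.74, adjusted p 9.43e-08), also in 6 of 6 samples. Without Ahr-KO F3 the differences were 2.23 (adjusted p 2.62e-06) and 2.41 (adjusted p 9.88e-07), and without WT F3 they were 2.27 (adjusted p 3.57e-06) and 2.38 (adjusted p 1.27e-06). Sorted by the size of the rise, Cd34 was number 2 and Prg2 number 3 of the genes tested, and the median difference of all genes was 0. With no minimum, 2.74% of 22708 genes passed, and of the 7 members Prg2 and Cd34 did.

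The comparison of Ahrr-KO with WT asks the same for the repressor. It shares its WT samples with the comparison above. Of 11546 genes tested with limma, 0.0779% had an adjusted p under 0.05, and 0 of the 2 members tested did, with 0 members at an unadjusted p under 0.05 and 0 called with voom. Prg2 differed by 0.23 (SE 0.21, 95% interval -0.22 to 0.68, adjusted p 0.75). Cd34 differed by 0.08 (SE 0.21, 95% interval -0.38 to 0.53, adjusted p 0.916). Both intervals included 0. With no minimum, 0.0176% of the 22708 genes passed and 0 of the 7 members, with 0 of the 7 at an unadjusted p under 0.05.

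The knockouts were also compared with each other, a contrast that uses no WT sample but shares the Ahr-KO samples with the first. Of 11474 genes tested, 14.9% were called in limma, and both tested members were. Prg2 was higher in Ahr-KO than in Ahrr-KO by 2.07 (SE 0.21, 95% interval 1.63 to 2.51, adjusted p 1.81e-05). Cd34 was higher by 2.33 (SE 0.16, 95% interval 1.98 to 2.68, adjusted p 6.37e-07). The 6 Ahr-KO samples lay above all 6 Ahrr-KO samples for each of these genes, and the ratio of mean normalized counts was 6.11 for Prg2 and 6.62 for Cd34. With no minimum, 3.14% of 22708 genes passed, and of the 7 members Prg2 and Cd34 did. The order of the genotypes was Ahr-KO, Ahrr-KO, WT for both genes, and the last pair in that order did not differ beyond its spread.

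Males and females were compared next. In Ahr-KO the mean of Prg2 was 9.84 ± 0.16 (SD, n = 3) in females and 8.81 ± 0.31 in males, and each female (9.65, 9.91 and 9.95) was above each male (8.6, 8.67 and 9.17). In WT the means were 7.17 ± 0.46 in females and 6.88 ± 0.13 in males, and in Ahrr-KO 7.44 ± 0.45 and 7.07 ± 0.53, with overlap between the sexes in both genotypes. Across all 18 samples, with genotype in the model, limma called 3.06% of 11468 genes between the sexes and 0 of the 2 members tested, with 1 member at an unadjusted p under 0.05. That member was Prg2, lower in males by a difference of -0.57 (SE 0.17, 95% interval -0.92 to -0.22, adjusted p 0.0707). In the WT samples alone it was -0.30 (adjusted p 0.998), and with no minimum the adjusted p was 0.136. In that fit with no minimum 0 of the 7 members passed, with 3 at an unadjusted p under 0.05, and 0.718% of all genes passed. Leaving out 1 sample gave an adjusted p of 0.0191 without WT F1, 0.0428 without Ahrr-KO F3 and 0.039 without Ahrr-KO M1, and up to 0.152 without Ahr-KO M1, so the sex difference of Prg2 was not established. Cd34 differed by -0.19 (SE 0.15, adjusted p 0.513) between males and females.

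Whether the Ahr-KO effect itself differed between the sexes was tested as an interaction. In limma 0% of 11346 genes passed, with 533 at an unadjusted p under 0.05, and 0 of the 2 members tested passed, with 1 at an unadjusted p under 0.05. With no minimum 0 of the 7 members and 0 of 22708 genes passed, with 2 and 903 at an unadjusted p under 0.05. For Prg2 the rise in males was smaller than in females by a difference of -0.73 (SE 0.31, 95% interval -1.38 to -0.08, adjusted p 0.954). For Cd34 the interaction term was 0.02 (adjusted p 0.995). A sex difference in the response of Prg2 was therefore not established after adjustment.

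Prg2 and Cd34 also moved together among animals of the same genotype and sex. After the mean of each genotype and sex was removed, Pearson's r between them over the 18 samples was 0.73 (exact permutation p 0.000965, adjusted p 0.0203 over 21 pairs of members) and Spearman's rho was 0.75 (exact permutation p 0.00148, adjusted p 0.0311), both two-sided. Without Ahrr-KO F2 and Ahrr-KO M3, the samples farthest from the median of Prg2, r was 0.68. The other 20 pairs had adjusted p of 0.961 or more for r, and 5 of the 7 genes in them were near their counting limit. The pair no longer passed the adjusted threshold when all samples of WT or all of Ahrr-KO were left out, with r of 0.84 (adjusted p 0.34) and 0.61 (adjusted p 0.372). It still passed when all Ahr-KO samples were left out, with r of 0.74 (adjusted p 0.0485). Depth and the composition of each sorted sample are shared by all genes of a library, and their part in this relation was not tested.

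**Figure D2:**
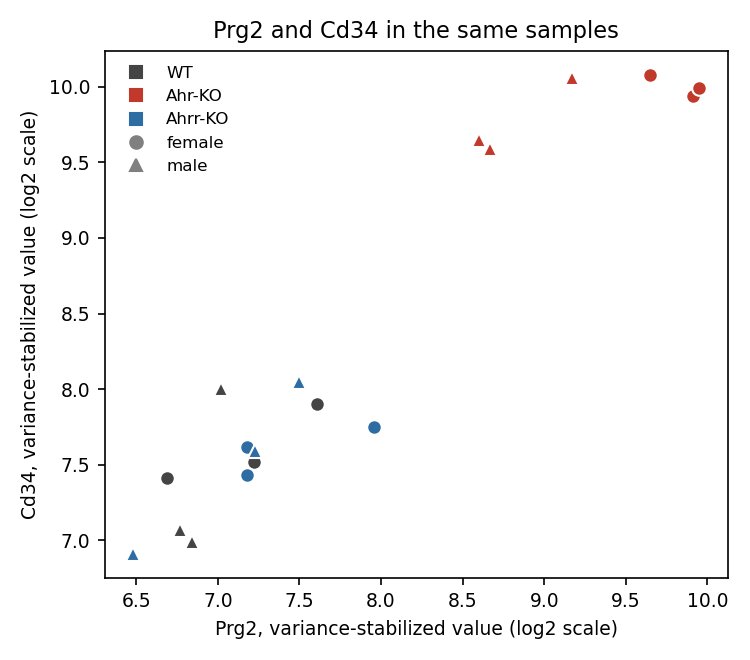
Variance-stabilized value of Prg2 against that of Cd34 in each sample, colored by genotype, with circles for females and triangles for males. The 6 Ahr-KO samples form a separate group at high values of both genes, and the WT and Ahrr-KO samples share a lower range.

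Genes with a pattern like these were found by Pearson's r of the values over the 18 samples, among 11468 genes. For Prg2 the closest was Cd34 with r 0.955, followed by Grhl1 with 0.953 and Inpp5j with 0.951. For Cd34 the closest after Prg2 was Clec12a with 0.954, followed by Lmo4 with 0.949. The Ahr-KO samples stand apart for each of these genes, so r over all samples mainly describes that separation. Mean values of Grhl1 were 6.5 in WT, 8.56 in Ahr-KO and 6.56 in Ahrr-KO. Those of Clec12a were 8.11, 9.88 and 8.19.

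Prg3 (chr2:84988196-84996559) encodes the major basic protein homolog and lies 4.56 kb beyond the end of Prg2. Its coding sequence was 65.8% identical to that of Prg2 in a global alignment, and 0 windows of 75 bases, the shortest read length stated, were shared between them, so reads of that length or longer without errors can be assigned to one or the other. Its counts summed to 6 in WT, 19 in Ahr-KO and 64 in Ahrr-KO, and 2 of the 6 samples of each genotype had 0. Of the 64 counts in Ahrr-KO 37 were in F3, and of the 19 in Ahr-KO 11 were in F3. Pooled CPM was 0.167 (exact 95% interval 0.0614 to 0.364) in WT, 0.35 (0.211 to 0.547) in Ahr-KO and 1.05 (0.806 to 1.34) in Ahrr-KO. Without the F3 library of each knockout it was 0.178 (0.0767 to 0.35) in Ahr-KO and 0.55 (0.362 to 0.8) in Ahrr-KO. Such intervals, and the floors given for counts of 0, cover counting error only. In the fit with no minimum Prg3 differed by 0.09 (adjusted p 0.822) between Ahr-KO and WT and by 0.30 (adjusted p 0.739) between Ahrr-KO and WT. The rise of Prg2 in Ahr-KO thus had no detectable counterpart in its neighbor and homolog at this depth.

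Epx (chr11:87863997-87875536) encodes eosinophil peroxidase, a protein stored in the granule matrix that can make hypohalous acids. It was detected in all 18 samples with 4 to 12 counts in WT, 4 to 18 in Ahr-KO and 4 to 22 in Ahrr-KO. Pooled CPM was 1.31 (exact 95% interval 0.963 to 1.74) in WT, 1.24 (0.958 to 1.57) in Ahr-KO and 1.05 (0.806 to 1.34) in Ahrr-KO. The 3 genotypes overlapped throughout. With no minimum the Ahr-KO difference was -0.02 (95% interval -0.26 to 0.22, adjusted p 0.961) on the variance-stabilized scale, which is compressed at such counts. The related peroxidase genes Mpo, Lpo and Pxdn did not pass the filter in Ahr-KO against WT. Mpo, the peroxidase of neutrophils, had a median of 0 counts in each genotype and a highest count of 19 in WT F3, a library named above for its many detected genes.

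The ribonucleases Ear1, Ear2 and Ear6 are the mouse relatives of human eosinophil cationic protein and eosinophil-derived neurotoxin. They belong to a recently duplicated family on chromosome 14, and the start of their coding sequences shows how little separates them. The first 90 coding bases are given from the mouse reference annotation, 5′ to 3′, with capitals at the bases that differ from Ear1.
Ear1: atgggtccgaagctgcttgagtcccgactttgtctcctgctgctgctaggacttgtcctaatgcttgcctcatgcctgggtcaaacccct
Ear2: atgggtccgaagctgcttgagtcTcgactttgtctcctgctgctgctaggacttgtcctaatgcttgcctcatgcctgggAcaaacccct
Ear6: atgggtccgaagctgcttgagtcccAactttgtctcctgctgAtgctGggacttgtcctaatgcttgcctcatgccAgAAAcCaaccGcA
Ear2 differs from Ear1 at 2 of these bases and Ear6 at 10. Over the whole coding sequence Ear1 and Ear2 were 95.3% identical, Ear1 and Ear6 87.6%, and Ear2 and Ear6 87.8%. Of the 639 windows of 75 bases in the Ear1 transcript, 39.3% also occurred in another gene (Ear-ps9, Ear10, Ear2 or Ear-ps2), and for Ear2 this share was 23.4% of 645. For Ear6, Prg2, Prg3, Epx and Cd34 it was 0. Windows longer than 75 bases were not examined. Counts of Ear1 and Ear2 therefore depend on how shared reads were divided among the copies, and the table has no entry for several other Ear genes, Ear10 among them.

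Ear1 (chr14:43818765-43819639) had 21 counts over the WT samples, 41 over Ahr-KO and 27 over Ahrr-KO. Of these, 11 were in WT F3 and 23 in Ahr-KO F3, so 1 library carried the majority in each of those genotypes, and these were the libraries with the most detected genes. Without them the pooled CPM of Ear1 was 0.312 (exact 95% interval 0.15 to 0.575) in WT and 0.4 (0.237 to 0.632) in Ahr-KO. Ear2 (chr14:44102654-44103531) had 19 counts in WT, 59 in Ahr-KO and 86 in Ahrr-KO, with 32 in Ahr-KO F3 alone and 27 in each of Ahrr-KO F2 and M2. Pooled CPM of Ear2 was 0.53 (exact 95% interval 0.319 to 0.828) in WT, 1.09 (0.828 to 1.4) in Ahr-KO and 1.41 (1.12 to 1.74) in Ahrr-KO, and the samples overlapped between genotypes. Without Ahr-KO F3 it was 0.6 (0.395 to 0.872) in Ahr-KO. It was 0.395 (0.204 to 0.69) in WT without WT F2 and 1.13 (0.858 to 1.45) in Ahrr-KO without Ahrr-KO F2. In the fit with no minimum the adjusted p for Ahr-KO against WT was 0.984 for Ear1 (difference -0.02) and 0.699 for Ear2 (difference 0.21). Ear6 (chr14:51853768-51854643) had 1 count in WT, 1 in Ahr-KO and 0 in Ahrr-KO, where 3 counts, the floor over the group, would be 0.0491 CPM. No fold is given for Ear6.

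Because Prg2 rose with no detectable rise of the other granule genes, the make-up of the granule transcripts differed between genotypes. Of the counts summed over the 6 granule genes, Prg2 took 77.88% in WT (331 of 425), 95.71% in Ahr-KO (4177 of 4364) and 75.26% in Ahrr-KO (733 of 974). By sample the share of Prg2 was 65.7 to 84.3% in WT, 92.5 to 98.8% in Ahr-KO and 67.9 to 83.8% in Ahrr-KO. The Ahr-KO samples did not overlap the others. Epx took 11.06% of these counts in WT, 1.54% in Ahr-KO and 6.57% in Ahrr-KO.

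Promoters were searched because Prg2 and Cd34 moved together and AHR and GATA factors bind known letters. Promoter windows of 300 bases, 250 before to 50 after the start of the gene, were found in RefSeq (GRCm38.p6) for 6 of the 7 genes, with no entry for Prg2. The letters searched on both strands were GCGTG, the core of the AHR response element, GATAA, bound by GATA factors that drive eosinophil development, and GAGGAA, bound by PU.1. The Cd34 window (chr1:194938571-194938870, plus strand) is shown because Cd34 rose in Ahr-KO, with its GATAA in capitals. That of Prg3 (chr2:84987965-84988264, plus strand) is shown as the only member window with GCGTG, and its capitals mark GCGTG and GATAA, the latter read on the minus strand as TTATC.
Cd34: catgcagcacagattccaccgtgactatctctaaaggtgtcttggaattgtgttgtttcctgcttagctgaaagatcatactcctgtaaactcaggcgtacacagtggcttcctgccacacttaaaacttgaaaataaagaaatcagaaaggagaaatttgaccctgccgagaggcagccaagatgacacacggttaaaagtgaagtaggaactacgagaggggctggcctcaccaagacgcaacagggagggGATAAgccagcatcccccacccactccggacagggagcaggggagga
Prg3: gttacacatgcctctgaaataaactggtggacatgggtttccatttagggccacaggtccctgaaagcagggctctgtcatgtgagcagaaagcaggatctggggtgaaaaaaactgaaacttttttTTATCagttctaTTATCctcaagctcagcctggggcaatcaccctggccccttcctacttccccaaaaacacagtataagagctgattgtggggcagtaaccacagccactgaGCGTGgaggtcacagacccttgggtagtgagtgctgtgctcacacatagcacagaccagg
Among the 6 windows, GCGTG occurred in 1, GATAA in 5 (all but Epx) and GAGGAA in 0. The GATAA matches of Ear1, Ear2 and Ear6 began at bases 4, 7 and 3 from the start of the gene, and that of Cd34 at base 4. As Ear1, Ear2 and Ear6 belong to a recently duplicated family, their matches are not independent of each other. Of 32851 mouse promoters of the same length, 32.4% held GCGTG, 25.4% held GATAA and 28.3% held GAGGAA. A match is a run of letters and not a measured binding site.

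Genes around each member were examined next. Within 200 kb of Prg2, 4 other genes were tested (Ssrp1, Tnks1bp1, Timm10 and Slc43a3), and limma called 0 of them in Ahr-KO against WT, with differences of -0.14 to 0.06. Around Cd34, 6 neighbors were tested, with 1 higher and 1 lower in that comparison, where 8.84% of all genes tested were called. The higher one was Gm16897, which lies on the opposite strand and shares 148 exonic bases with Cd34. These were 2.0% of the annotated exonic bases of Cd34, and their share of the exons of Gm16897 was not computed. The mean of Gm16897 was 6.21 ± 0.16 (SD, n = 6) in WT, 7.58 ± 0.19 in Ahr-KO and 5.98 ± 0.35 in Ahrr-KO, a rise of 1.37 (SE 0.12, adjusted p 2.17e-06) in Ahr-KO against WT. Reads in the shared bases cannot be told apart without strand information, and the strand of the libraries was not given. The lower one was Plxna2, at -0.59 (SE 0.17, adjusted p 0.0362). Neighbors of Epx gave 0 calls of 8 tested and those of Ear6 gave 0 of 6.

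The wider family of secreted ribonucleases held 27 listed genes, of which 15 were in the table and 6 passed the filter. In Ahr-KO against WT, 2 of the 6 (33.3%) were higher and 0 lower, where 8.84% of all genes tested were called in either direction, and their median difference was 0.10, against 0 over all genes. Rnase12 rose by 1.11 (SE 0.16, adjusted p 0.000286), from a mean of 7.75 to 8.86. Rnase6, which encodes an antimicrobial ribonuclease of leukocytes, rose by 0.88 (SE 0.14, adjusted p 0.000681), from 7.83 to 8.71, and every Ahr-KO sample of each of these genes was above every WT sample, as for 2.62% of all genes tested. The other 4 were Rnase4 (0.24, adjusted p 0.275), Ang (-0.04, adjusted p 0.916), Ang4 (-0.37, adjusted p 0.538) and Rnase1 (-1.19, adjusted p 0.094). Ang4, a Paneth cell product, had the highest mean of the list in WT (36.1 CPM) and in Ahrr-KO (128 CPM) but not in Ahr-KO (22.4 CPM), where Rnase12 had 50.5 CPM, and it reached its highest value, 11.6, in Ahrr-KO M1. In Ahr-KO against Ahrr-KO, Rnase12 (1.6) and Rnase6 (1.13) were again higher, and Ang4 (-1.81) and Rnase1 (-1.12) were lower. Without the libraries rich in epithelial transcripts, described below, Rnase12 (1.32, adjusted p 0.00303) and Rnase6 (0.91, adjusted p 0.0491) were called there, and Ang4 (-0.43, adjusted p 0.69) and Rnase1 (-0.49, adjusted p 0.746) were not.

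Genes for the rest of the granule were then listed to see whether they moved with Prg2. Of 13 tested genes for granule matrix and membrane proteins, 3 (23.1%) were higher in Ahr-KO than in WT and 0 lower, against 8.84% called of all genes tested, with a median difference of 0.21. These were Ctsc (0.74, adjusted p 0.000811), which encodes the protease that activates granule serine proteases, Arsb (0.40, adjusted p 0.0358) and Gusb (0.38, adjusted p 0.0206). Without WT F1, a library rich in epithelial transcripts, Arsb was not called (0.32, adjusted p 0.0608) and Sgsh was (0.40, adjusted p 0.0462). Between the knockouts limma called 0 of the 13, against 14.9% of all genes, with 2 at an unadjusted p under 0.05, and Ctsc differed there by 0.14 (adjusted p 0.644) and in Ahrr-KO against WT by 0.60 (adjusted p 0.502). The most abundant was Srgn, the proteoglycan that packs granule cargo, with 68.0% of the summed CPM of the list in WT. Of 15 tested genes for granule release, 2 (13.3%, against the same 8.84%) were higher and 0 lower, with a median of 0.09. They were Sytl1 (0.66, adjusted p 0.00496), an effector of Rab27, and Unc13d (0.47, adjusted p 0.0117), which primes granules for fusion, and Lyst was the most abundant. None of the 5 named genes moved by as much as Prg2.

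Granule proteins are folded in the endoplasmic reticulum before storage. Of 22 tested genes for folding and stress of that compartment, limma called 0 in Ahr-KO against WT, with 4 at an unadjusted p under 0.05, and their median difference was -0.16. In Ahr-KO against Ahrr-KO 4 (18.2%, against 14.9% of all genes tested) were lower and 0 higher, namely Xbp1 (-0.57, adjusted p 0.0203), Spcs1 (-0.54, adjusted p 0.038), Sec61a1 (-0.50, adjusted p 0.0209) and Ddit3 (-0.44, adjusted p 0.0259). The median of the list was -0.34 in this comparison. Of the 6 Ahrr-KO libraries 4 were rich in epithelial transcripts, and without them, with fewer samples fitted, limma called 0 of the 22 and 2.57% of all genes, with 4 of the 22 at an unadjusted p under 0.05 and a median of -0.16. The differences of the named genes were then -0.55 for Xbp1, -0.42 for Spcs1, -0.35 for Sec61a1 and -0.54 for Ddit3, so Xbp1 and Ddit3 lost their calls at differences about as large as with all libraries. Hsp90b1 was the most abundant of the list.

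Transcription factors of eosinophil development gave 1 higher and 1 lower of 15 tested (13.3%, against 8.84% of all genes) in Ahr-KO against WT, with a median of 0.08. Id2, an inhibitor of DNA binding, rose by 1.52 (SE 0.14, adjusted p 3.52e-06), from 7.71 ± 0.3 (SD, n = 6) to 9.23 ± 0.33, and was 7.84 ± 0.4 in Ahrr-KO. Myb, a factor of immature cells, was lower by a difference of -0.56 (adjusted p 0.0272). Trib1, which shapes eosinophil identity, was the most abundant. In Ahr-KO against Ahrr-KO, Id2 (1.39) was higher, and Irf8 (-0.82) and Cebpa (-0.69) were lower. Without the libraries rich in epithelial transcripts Id2 was called there (1.09, adjusted p 0.0146), and Irf8 (-0.43, adjusted p 0.572) and Cebpa (-0.55, adjusted p 0.306) were not.

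The other progenitor genes did not follow Cd34 as a group. Of 13 tested of 18 listed, with Cd34 counted among them, 2 were higher and 4 lower in Ahr-KO against WT (46.2%, against 8.84% of all genes). The median difference was -0.15. Those higher were Cd34 and Meis1 (0.48, adjusted p 0.0326), the latter the most abundant of the list. Those lower were Cd38 (-0.84, adjusted p 0.0249), Prom1 (-0.78, adjusted p 0.0348), Ly6a (-0.56, adjusted p 0.0386) and Myb. Prom1, Cd38 and Myb had high values in libraries rich in epithelial transcripts, with 9.4, 9.58 and 8.65 in WT F1 and 9.88, 10.09 and 9.3 in Ahrr-KO M3. Without WT F1 the differences were -0.60 (adjusted p 0.0472) for Prom1, -0.66 (adjusted p 0.031) for Cd38 and -0.45 (adjusted p 0.0426) for Myb. Meis1 was not called (0.39, adjusted p 0.0546) and Slamf1 was (-0.62, adjusted p 0.0443). Of the 13, 1 was then higher, Cd34 itself, and 5 were lower. Without WT F1 and WT M3 together, Prom1 (-0.50, adjusted p 0.101), Cd38 (-0.58, adjusted p 0.0671), Myb (-0.36, adjusted p 0.092) and Meis1 (0.32, adjusted p 0.107) were not called. Kit, the stem cell factor receptor, differed by 0.41 (adjusted p 0.383). Podxl, which encodes a sialomucin related to CD34, differed by -0.21 (adjusted p 0.534).

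Genes of dividing cells were listed as well. Of 12 tested, 0 were higher and 1 was lower in Ahr-KO against WT (8.3%, against 8.84% of all genes), all 12 differences were below 0, and the median was -0.44. The called gene was Top2a (-0.92, adjusted p 0.0328), and Mki67 was the most abundant. In Ahr-KO against Ahrr-KO 7 of the 12 (58.3%, against 14.9%) were lower, led by Top2a (-1.11), Stmn1 (-1.08), Ccnb1 (-0.88) and Ccnb2 (-0.82). The summed level of the list was 320 to 598 CPM in Ahr-KO, and its highest values were 1720 in Ahrr-KO M3, 1000 in Ahrr-KO F3, 998 in WT M3 and 989 in WT F1. Ahrr-KO M2 had 760 and Ahrr-KO M1, also rich in epithelial transcripts, had 519. Without the libraries rich in epithelial transcripts, with fewer samples fitted, limma called 0 of the 12 in Ahr-KO against Ahrr-KO, with 2 at an unadjusted p under 0.05 and a median of -0.22, where it had been -0.64. Of all genes 2.57% were called in that smaller fit. Top2a was then at -0.65, Stmn1 at -0.16, Ccnb1 at -0.27 and Ccnb2 at -0.60, and Top2a (-0.70, adjusted p 0.0404) was called in Ahr-KO against WT, with a median of -0.29. Without WT M3 as well Top2a was not called (-0.54, adjusted p 0.0807).

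**Figure D3:**
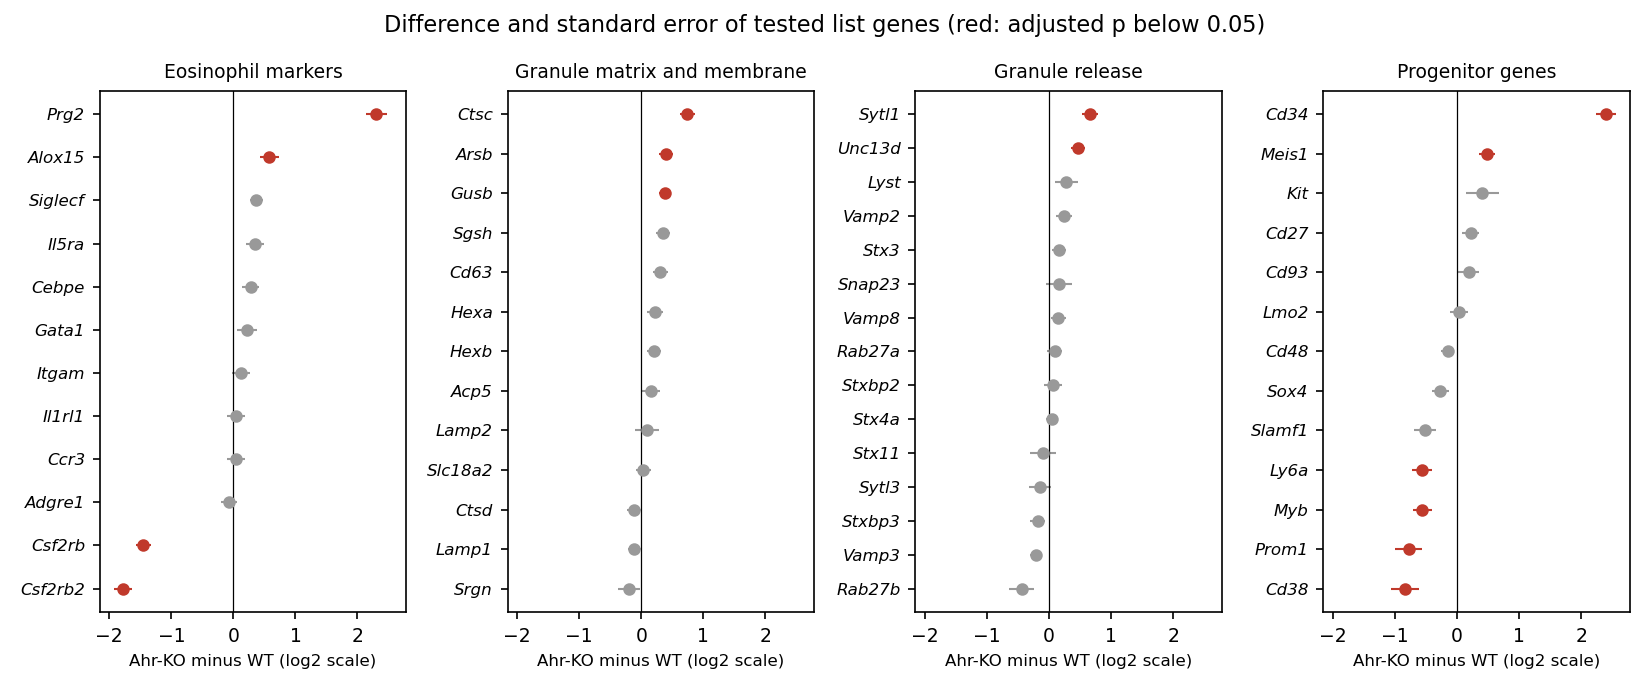
Differences in Ahr-KO against WT on the variance-stabilized scale for the tested eosinophil, granule and progenitor genes, with 1 point per gene, a bar for its standard error, and red where the adjusted p in limma was under 0.05. Prg2 and Cd34 lie at 2.30 and 2.40, the largest rises of their lists.

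The eosinophil list includes Prg2 itself. Of its 12 tested genes, 2 were higher and 2 lower (33.3%, against 8.84% of all genes) in Ahr-KO against WT, with a median of 0.17. Those higher were Prg2 and Alox15 (0.58, adjusted p 0.023), the most abundant of the list in Ahr-KO. Those lower were the receptor subunit genes Csf2rb (-1.45, adjusted p 1.39e-06) and Csf2rb2 (-1.78, adjusted p 1.31e-06), which are similar in sequence, so that their reads may be divided between them. The summed level of the list was 7100 to 9650 CPM in WT, 8720 to 9220 in Ahr-KO and 4530 to 8760 in Ahrr-KO. WT and Ahr-KO overlapped, and the lowest sample was Ahrr-KO M3. In Ahr-KO against Ahrr-KO 4 of the 12 were higher and 2 lower (50%, against 14.9% of all genes). Those higher were Prg2, Alox15 (0.79), Il5ra (0.75) and Siglecf (0.72), and Csf2rb (-1.28) and Csf2rb2 (-1.72) were lower. Without the libraries rich in epithelial transcripts, Alox15 (0.40, adjusted p 0.437), Il5ra (0.44, adjusted p 0.447) and Siglecf (0.36, adjusted p 0.384) were not called there.

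Cd34 and granule genes are also made by other cells that a sort may carry along, so marker genes of those cells are given for each genotype. The endothelial list had a summed level of 372 to 475 CPM in WT, 253 to 283 in Ahr-KO and 298 to 415 in Ahrr-KO. Its relation to the rise of Cd34 was not tested. Pecam1, which leukocytes also express, made up 94.0% of it in WT and fell by 0.63 (adjusted p 0.00116), the only call among 4 tested (25%, against 8.84% of all genes, median -0.29), and Cldn5 and Ramp2 had medians of at most 3 counts. The fibroblast list summed to 23.5 to 47.1 in WT, 27.0 to 37.7 in Ahr-KO and 24.1 to 277 in Ahrr-KO, so WT and Ahr-KO were alike in range, and limma called 0 of 3 tested genes in Ahr-KO against WT, with 0 at an unadjusted p under 0.05 and a median of -0.15. Pi16 was its most abundant gene in WT, and Lum, Dpt and Mfap5 had medians of at most 3 counts.

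The mast cell and basophil list had 12 genes in the table, of which 9 had medians of at most 3 counts, among them Mcpt1, Mcpt2, Mcpt4, Mcpt8, Cma1, Fcer1a and Ms4a2. Only Hdc and Kit were tested, with 0 called in limma in Ahr-KO against WT, 0 at an unadjusted p under 0.05 and a median of 0.24. Its summed level was 85.9 to 922 CPM in WT, 93.0 to 978 in Ahr-KO and 210 to 960 in Ahrr-KO, nearly all from Hdc (96.7% in WT), and the genotypes overlapped. In the neutrophil list 3 genes were higher and 1 lower of 8 tested (50%, against 8.84% of all genes) in Ahr-KO against WT, with a median of 0.37. Retnlg, its most abundant gene, rose by 1.21 (adjusted p 0.00453), Cxcr2 by 0.65 (adjusted p 0.0198) and Csf3r by 0.59 (adjusted p 0.0145), and Mmp8 was lower by a difference of -0.92 (adjusted p 0.00677). The primary granule genes Mpo, Elane, Prtn3 and Ctsg, and also Ly6g and Camp, had medians of at most 3 counts. Single libraries differed from this, since Camp was 7.31 in Ahr-KO F3 and 8.04 in Ahrr-KO F2, Ngp 8.11 and 8.95, and Lcn2 7.43 and 7.87, the 2 highest values of each gene, and these libraries also had the highest Prg2 of their genotypes. Without Ahr-KO F3 Prg2 was higher in Ahr-KO than in Ahrr-KO by 2.01 (adjusted p 8.89e-05), and without Ahrr-KO F2 by 2.15 (adjusted p 3.01e-05). The summed level of the neutrophil list was 3270 to 5650 CPM in WT, 7580 to 13000 in Ahr-KO and 3790 to 5160 in Ahrr-KO. This sum followed Retnlg, which made up 97.4% of it in Ahr-KO, so that Retnlg was high in the same samples as Prg2 and Cd34, and its part in their rise was not tested. Between the knockouts, 1 gene of the list was higher and 4 lower of 9 tested in Ahr-KO (55.6%, against 14.9% of all genes), with a median of -0.59. Retnlg was higher (1.29), and S100a8 (-1.73), S100a9 (-1.69), Mmp8 (-1.58) and Csf3r (-0.59) were lower. Without the libraries rich in epithelial transcripts, Retnlg (1.36, adjusted p 0.0285) and Mmp8 (-2.05, adjusted p 0.00287) were called there, and S100a8 (-1.98, adjusted p 0.136), S100a9 (-1.80, adjusted p 0.069) and Csf3r (-0.92, adjusted p 0.0666) were not. In Ahrr-KO against WT this list gave 3 genes higher and 0 lower of 9 tested (33.3%, against 0.0779% of all genes). They were S100a9 (2.1, adjusted p 0.00022), S100a8 (2.06, adjusted p 0.000667) and Csf3r (1.18, adjusted p 0.0426). Of all genes 9 were called in that comparison, and 2 without the libraries rich in epithelial transcripts, so these 3 calls did not all hold there.

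The macrophage and dendritic cell list gave 2 higher and 1 lower of 11 tested (27.3%, against 8.84% of all genes) in Ahr-KO against WT, with a median of 0.06. They were Csf1r (0.49, adjusted p 0.00693), Itgax (0.42, adjusted p 0.0376), the most abundant, and Cd68 (-0.49, adjusted p 0.0486). Without WT F1, a library rich in epithelial transcripts, Csf1r alone was called (0.44, adjusted p 0.0127), with Itgax at 0.35 (adjusted p 0.0634) and Cd68 at -0.48 (adjusted p 0.068). Its summed level was 1070 to 1480 CPM in WT, 1230 to 2020 in Ahr-KO and 1020 to 2130 in Ahrr-KO. The lymphoid list, mostly Jchain (88.4% in WT), summed to 36.5 to 206 in WT, 12.7 to 102 in Ahr-KO and 37.9 to 672 in Ahrr-KO. Limma called 0 of its 3 tested genes in Ahr-KO against WT, with 1 at an unadjusted p under 0.05 and a median of -0.01, and Jchain was lower in Ahr-KO than in Ahrr-KO by a difference of -3.2 (adjusted p 0.00708). The summed levels of both lists overlapped between genotypes. Without the libraries rich in epithelial transcripts Jchain was not called in Ahr-KO against Ahrr-KO (-3.32, adjusted p 0.0931).

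Intestinal epithelial transcripts differed between libraries. The list summed to 1230 to 3820 CPM in WT (median 1680), 1120 to 1690 in Ahr-KO (median 1470) and 1290 to 8860 in Ahrr-KO (median 4870), with Lyz1 as the most abundant gene. In Ahr-KO against WT 0 of 13 tested genes were higher and 1 was lower (7.7%, against 8.84% of all genes), Muc2 (-1.12, adjusted p 0.00174), with a median of -0.45. WT F1 and Ahrr-KO F3, M1, M2 and M3 had more than 2 times the median of all 18 samples, a limit of 3250 CPM that WT M3 missed at 3180. These 5 libraries were left out, a choice made after the values were seen. Only WT F1 of them enters Ahr-KO against WT, and without it Prg2 was higher in Ahr-KO by 2.15 (adjusted p 5.48e-08) and Cd34 by 2.36 (adjusted p 9.88e-08). Against the 2 remaining Ahrr-KO samples, F1 and F2, the differences were 2.26 (adjusted p 0.000136) and 2.32 (adjusted p 6.66e-06). Both samples were female, and with sex in the model this comparison rests on females. The rise of both genes was about as large without the libraries rich in epithelial transcripts, over Ahrr-KO in females only. With WT M3 left out as well as WT F1, also a choice made after the values were seen, Prg2 was higher in Ahr-KO than in WT by 2.15 (adjusted p 1.61e-07) and Cd34 by 2.28 (adjusted p 2.28e-07), and 7.86% of 11320 genes were called. Of the listed genes, Arsb (0.32, adjusted p 0.0846), Alox15 (0.44, adjusted p 0.0519), Itgax (0.33, adjusted p 0.0924) and Cd68 (-0.54, adjusted p 0.0518) were then not called, nor were Meis1, Cd38, Prom1, Myb and Top2a. Apoa1 (0.70) and Jchain (-1.84) were newly called. Slamf1 (-0.81) was called too, as it was without WT F1 alone (-0.62, adjusted p 0.0443).

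**Figure D4:**
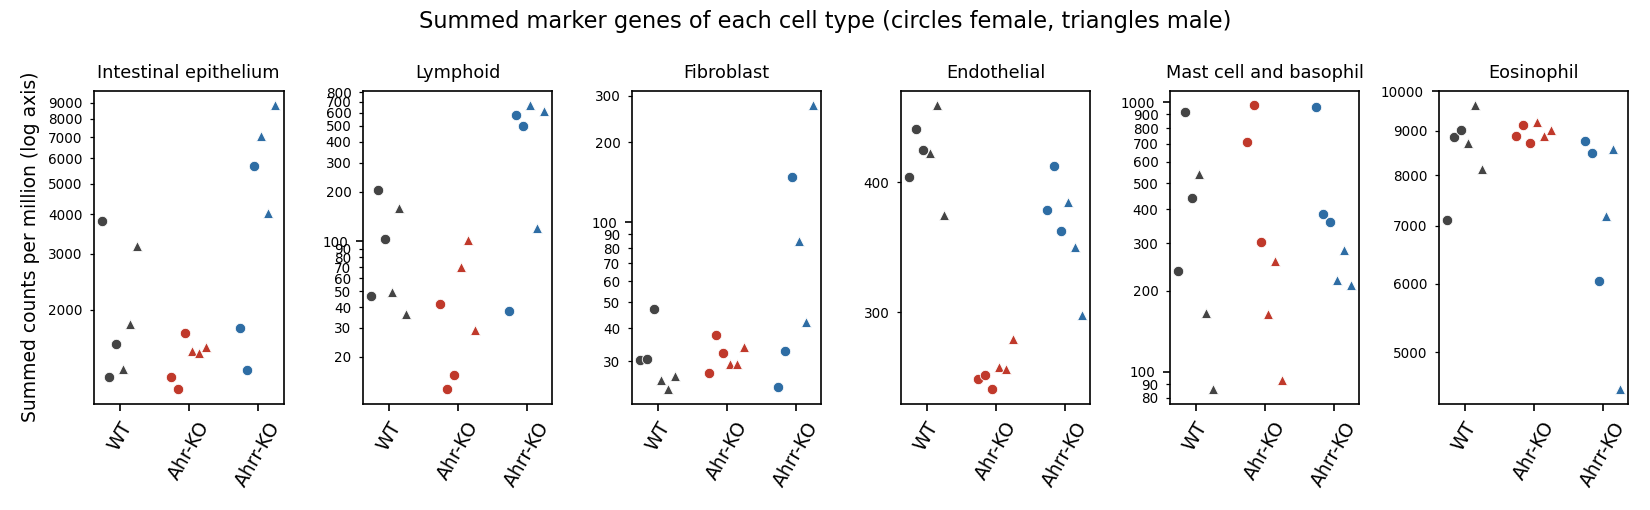
Summed CPM of the marker genes of 6 cell types in each sample, on log axes, by genotype, with circles for females and triangles for males. Epithelial, lymphoid and fibroblast sums reach their highest values in Ahrr-KO samples, and endothelial sums are lowest in Ahr-KO.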

How the data were processed

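RNA of 18 sorted eosinophil samples was sequenced with single-end Illumina reads. The submitters' processing notes name STAR 2.5.2, RSEM 1.3.0, R 4.0.3 and DESeq2 with GRCm38. The deposited values are variance-stabilized counts, which the authors gave on a log2-like scale. Inverting the transformation gave whole counts for 100% of values within 0.0001. Genotype and sex came from the labels. Comparisons used limma 3.58.1 (R 4.3.3) with a mean-variance trend on the deposited values, sex as covariate, genes whose mean exceeded the table's lowest value by 1 or more, and p-values adjusted over all genes tested (Benjamini-Hochberg, threshold 0.05). The median difference of all genes moved by less than 0.1 under each scaling. Covariation used exact permutations within genotype and sex (numpy 2.4.6, scipy 1.17.1, pandas 2.3.3). Transcript lengths came from GENCODE M21. The fitting code was tested on simulated data.

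Members and lists were chosen with earlier results of these data known. Genes named are the 7 members, each tested ribonuclease, up to 4 called genes and the most abundant gene of each other list, and the 3 genes most like each tested member. All other genes named, among them Kit, Podxl, Mpo, Cyp1b1, Ccr3, Camp, Ngp, Lcn2, Gm16897, the targeted genes and marker genes near 0 counts, were added after their values were seen, as were the values of Grhl1 and Clec12a. The 17 lists covered secreted ribonucleases, peroxidases, granule matrix and membrane, granule release, protein folding, lineage factors, CD34 and its relatives, progenitor, dividing cell and eosinophil genes. They also covered mast cell and basophil, neutrophil, macrophage and dendritic cell, endothelial, fibroblast, epithelial and lymphoid genes. Some further listed genes are not reported here. Alternatives changed the filter, scaling, variance model, sample weights, scale, covariate, replicate block and samples.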

Additional observations from a re-analysis of the deposited data

Results flagged for a closer look

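The values of the 7 members and of 3 related genes were searched in each genotype for a single sample far from the other 5, which covered 29 groups of 6 with any spread, and 2 were found. Both were Ear6. In WT F3 its value was 5.38 and in Ahr-KO F3 it was 5.27, while the other 5 samples of each genotype were tied at 5.02, the value of 0 counts. With such ties any single count is found by this search, so its usual rate of 1 in 20 by chance does not hold here. Each rests on 1 count, and these were the libraries with the most genes with a count, 20244 in WT F3 and 19694 in Ahr-KO F3.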

How the results depend on the processing

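Prg2 and Cd34 were called in Ahr-KO against WT and in Ahr-KO against Ahrr-KO, and neither was called in Ahrr-KO against WT, under all 26 alternatives run for each comparison. In Ahr-KO against WT 1 of these, without the libraries rich in epithelial transcripts, repeats the fit without WT F1. In Ahr-KO against WT the difference of Prg2 was 2.12 to 2.98 (largest adjusted p 6.44e-05) and that of Cd34 was 2.28 to 2.90 (largest adjusted p 2.39e-05), and with 1 sample left out they were 2.15 to 2.39 and 2.32 to 2.55. In Ahr-KO against Ahrr-KO they were 1.98 to 2.20 and 2.20 to 2.45 with 1 sample left out, and 1.93 to 2.68 and 2.29 to 2.78 under the other alternatives. The stricter minimum, 1 of the 26, was passed by both genes through the Ahr-KO samples alone, so it says nothing about stability. In Ahrr-KO against WT the stricter minimum left neither gene to test.

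The number of genes called in Ahr-KO against WT was 1003, and was 623 with no minimum, which tests more genes at low counts, and 553 with all 18 samples in 1 fit. With 1 sample left out it was 623 to 1124, the lowest without Ahr-KO F1. In Ahrr-KO against WT 9 genes were called, and 4 with no minimum, median centring, log2(normalized count + 1) or voom, 5 with the stricter minimum or quantile normalization, 18 with array weights, 14 with all 18 samples and 2 without the libraries rich in epithelial transcripts. With 1 sample left out this count was 4 to 25, with 4 without WT F1, F2, M2 or M3 or Ahrr-KO F2, M2 or M3, 5 without Ahrr-KO F3 and 25 without Ahrr-KO F1. In Ahr-KO against Ahrr-KO 1708 were called, and 713 with no minimum, 828 with the stricter minimum, 994 with no sex covariate and 290 without the libraries rich in epithelial transcripts, where fewer samples are fitted. With 1 sample left out it was 818 to 2574, with 907 without Ahr-KO F1, 970 without F2, 839 without M1, 933 without M2, 818 without M3, 2574 without Ahrr-KO F1, 1001 without F3 and 923 without M3. Apart from the fits with more genes or fewer samples, the cause was not tested.

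With the sample numbers as a replicate block in place of sex, 918 genes were called in Ahr-KO against WT, 4 in Ahrr-KO against WT and 1946 in Ahr-KO against Ahrr-KO. Correlations of samples with the same number across genotypes were -0.59 to 0.47, with 6 of 18 above 0.1. They were taken after the mean of each genotype and sex, with 3 samples each, was removed. They had no reference distribution, so they cannot decide whether the numbers pair animals.

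Between the sexes, 0 to 1 of the tested members were called with 1 sample left out. Of the 21 pairs of members, 1 passed, and 0 without the WT samples and 0 without the Ahrr-KO samples, and the cause was not tested. Depth limits Prg3, Epx, Ear1, Ear2 and Ear6, whose counts per genotype summed to 86 or fewer. The Ahr-KO and WT mice did not share litters or cages, 4 of 6 Ahrr-KO libraries were rich in epithelial transcripts, and counts of Ear1 and Ear2 share reads with other copies.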

Other observations

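Several listed genes differed between males and females over the 18 samples, each given as male minus female in limma with genotype in the model. Of the 156 listed genes tested 8 were called (5.13%), against 3.06% of all genes. The mast cell and basophil list had 2 of 2 tested genes lower in males, Hdc with a difference of -1.56 (adjusted p 0.0248) and Kit with -0.94 (adjusted p 0.0245). Gata2 was lower in males by a difference of -0.83 (adjusted p 0.00798), Ltf by -0.84 (adjusted p 0.021), Vamp2 by -0.65 (adjusted p 0.0104) and Atf4 by -0.48 (adjusted p 0.0345). H2-Aa was higher in males by 1.48 (adjusted p 0.0285) and H2-Ab1 by 1.34 (adjusted p 0.0426). In the same contrast the summed mast cell and basophil level was highest in a female of each genotype, WT F2, Ahr-KO F2 and Ahrr-KO F1, and lowest in M3 of each.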
